A study of Mus musculus with 51 samples.

Results

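The Iroquois homeobox genes Irx1, Irx2, Irx3, Irx4, Irx5 and Irx6 are 6 of the 24538 genes listed in the expression tables, and were taken by symbol and gene identifier as the complete mouse family. The family was chosen by its measured levels and ratios between wild-type (WT) and knockout (KO) cells in an earlier reading of the same tables, so these values are given as a description without a test. The tables hold RNA-seq of mouse embryonic stem cells (mESCs) that were plated on fibronectin and induced towards cardiac mesoderm with Bmp4 at 20 ng/ml. F1G4 WT cells were collected at the ES stage and on days 1, 2 and 3 (2 libraries each). On days 2 and 3, F1G4 lines lacking Eomes, T or both (Eomes/T double KO, dKO) were collected (1 library a day each), and on days 1 and 2 the Smad4 conditional line and its Smad4 KO derivative (1 library a day each). The Eomes KO and T KO lines carry CRISPR deletions of the promoter and first exon, the dKO line was made from the Eomes KO line, each line is a single clone, and the Smad4 KO line had lost its first exon by Cre excision. All groups after the ES stage received Bmp4, the ES group is listed without a dose, and no later group without Bmp4 was analysed here. The study's methods speak of biological replicates, without saying how the cultures were kept apart.

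Iroquois genes encode homeodomain transcription factors of the TALE class and lie in a pair of clusters that arose by duplication. In the embryo they pattern the neural tube, the limb and the heart. Irx4 is the classical marker of ventricular myocardium, Irx3 acts in the ventricular conduction system, and Irx5 shapes the repolarization gradient of the ventricle. Irx3 and Irx5 are neighbours and are often expressed in the same tissues, Irx1 and Irx2 are active in the ventricular septum and in several ectodermal tissues, and Irx6 is the least studied member. Eomes and T (Brachyury) are T-box factors that are switched on as epiblast cells become mesoderm, and Smad4 is the shared partner of the SMAD proteins that carry BMP and Nodal signals.

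On the GRCm38 assembly Irx3 (chr8:91798511-91801654, gene ID 16373), Irx5 (chr8:92357796-92361456, 54352) and Irx6 (chr8:92674289-92680956, 64379) span 882 kb. Irx1 (chr13:71958232-71963723, 16371), Irx2 (chr13:72624430-72634196, 16372) and Irx4 (chr13:73259589-73269622, 50916) span 1311 kb. Crnde, a long noncoding RNA gene (chr8:92326031-92356120), lies head to head with Irx5, with 1675 bases between them. The RefSeq promoter table (GRCm38) held 3 of the 6 family members (Irx2, Irx3 and Irx4) and Crnde. The 250 bases before the start of Irx3 and of Crnde are shown because these were the chromosome 8 genes of the locus, with Irx5, whose RNA was higher in most KO lines. Both are on the minus strand, and capitals mark CG dinucleotides.
Irx3, chr8:91801655-91801904: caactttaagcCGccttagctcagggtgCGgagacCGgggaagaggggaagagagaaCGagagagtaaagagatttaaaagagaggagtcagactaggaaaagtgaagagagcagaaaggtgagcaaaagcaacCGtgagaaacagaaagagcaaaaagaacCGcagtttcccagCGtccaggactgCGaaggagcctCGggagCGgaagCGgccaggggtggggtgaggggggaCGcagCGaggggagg
Crnde, chr8:92356121-92356370: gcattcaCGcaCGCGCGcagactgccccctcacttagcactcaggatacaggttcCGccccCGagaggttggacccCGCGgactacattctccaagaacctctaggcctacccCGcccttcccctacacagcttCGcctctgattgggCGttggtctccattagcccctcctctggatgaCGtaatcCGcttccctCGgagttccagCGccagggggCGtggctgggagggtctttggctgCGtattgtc
The Irx3 window holds 13 CG dinucleotides and is 56% G or C, and the Crnde window holds 17 and is 62%, against medians of 6 and 52.4% over 32851 promoters. On either strand, neither window held AGGTGTGA, a T-box motif found in 1.12% of all such windows, or the TCF/LEF letters CTTTGAT (3.21%) and CTTTGAA (4.46%). The SMAD letters CAGACA (17.1%) and GTCTAGAC (0.167%) were also absent. The CTTTGAT and CTTTGAA motifs share their first 6 letters, and no match says only that these letters are not in these windows.

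Levels are given as FPKM, the fragments of a gene relative to its transcript length and to library size. For most single-transcript genes the FPKM values multiplied by transcript length fell on whole steps, 1 in each single-library column and 2 in each F1G4 WT column. The fragments behind the values were read back from these steps. Irx3, which has 2 RefSeq transcripts, lay up to 0.145 fragments from a whole number. Irx2 was fitted with 2646 bases, against 2623 in RefSeq. Legends in the study describe KO values as averages of replicates, whereas the labels give 1 library for each KO condition and the columns show 1 step, and each is treated here as a single library. The 2 WT libraries of a stage are called the deeper and the shallower, since they could not be matched to replicate numbers, and a name does not link libraries of different stages. Effective depth was 18100000 fragments (T KO, day 2) to 37400000 (T KO, day 3) in the single libraries, and 21800000 to 29000000 in the F1G4 WT libraries. The 95% Poisson intervals given for single libraries cover counting error only, and fragments are not independent molecules.

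Several values set limits on how the libraries can be compared. In bulk RNA, fewer cells of a type and less RNA per cell cannot be told apart. The WT libraries of day 3 differed in neural-associated genes, with Sox2 at 37.2 FPKM in the deeper and 3.61 in the shallower. On day 2 the deeper held 28.1 FPKM of T, 179 of Nanog and 15.7 of Fgf5, against 59.0, 62.4 and 7.30 in the shallower. When 1 WT library was set against the other, 7.04% of all genes examined differed by more than 2-fold on day 2 and 10.2% on day 3. The Eomes KO library of day 3 and the T KO library of day 2 shared 4 genes at under 0.25 times the level of each of the 12 other conditions, more than any other pair of conditions. Among these was the ribosomal protein gene Rps16, at 13.3 and 8.54 FPKM against at least 123 elsewhere. Both are the only libraries of their condition, so that no value of theirs could be given without them.

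The targeted genes and stage markers were read first. Eomes was at 9.42 FPKM in WT and 2.42 in Eomes KO on day 2, and at 20.3 and 0.276 on day 3. T was at 44.8 FPKM in WT and 6.64 in T KO on day 2, and at 323 and 3.00 on day 3. The single KO lines also differed from WT in the other gene. In Eomes KO, T was at 22.3 FPKM against 43.1 on day 2 and 4.46 against 334 on day 3. In T KO, Eomes was at 24.7 FPKM against 9.81 on day 2 and 4.83 against 19.6 on day 3. The single KO lines are thus not losses of 1 factor alone at the RNA level. In dKO, Eomes was at 1.24 and 0.346 FPKM and T at 2.77 and 1.93 on days 2 and 3. Smad4 was not lower in Smad4 KO, with 39.4 FPKM against 33.8 on day 1 and 46.8 against 39.3 on day 2. The deletion removes the first exon only, and the gene-level value does not check it. In Smad4 KO on day 2 Eomes was at 1.73 FPKM against 24.8 in WT of that line, and T at 0.891 against 26.6. Nascent mesoderm markers separated the WT stages, with T at 0.0784 FPKM at the ES stage, 0.778 on day 1, 43.5 on day 2 and 320 on day 3, and Mesp1 listed at 0 at the ES stage and on day 2 and at 5.45 FPKM on day 3.

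The family members were not equally abundant. Over the 14 conditions, Irx3 was above an FPKM of 1 in 11, Irx5 in 9, Irx4 in 5 and Irx2 in 2, and Irx1 and Irx6 in none. The highest level of Irx3 was 18.3 FPKM and that of Irx5 5.30 FPKM, both in Eomes KO on day 3. Irx4 reached 7.40 FPKM in the same library, Irx2 1.59 FPKM in T KO on day 2, Irx1 0.407 FPKM in dKO on day 3 and Irx6 0.126 FPKM in Eomes KO on day 2. The cluster on chromosome 8 thus held the most and the least abundant member by highest level.

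**Figure D1:**
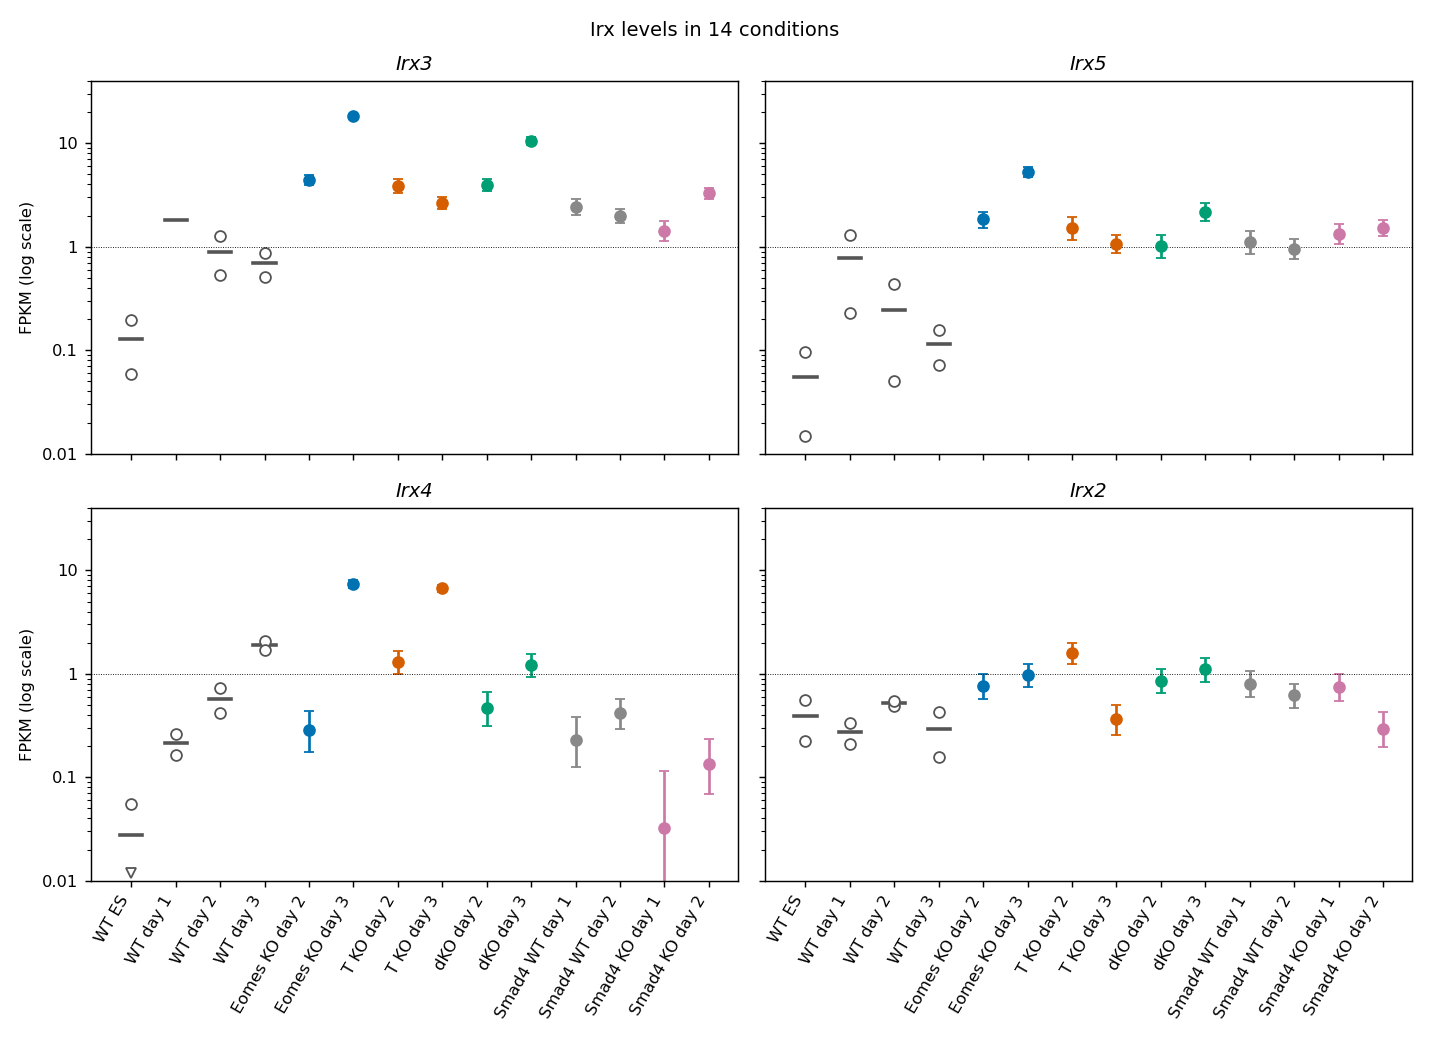
FPKM (log axis) of Irx3, Irx5, Irx4 and Irx2 in 14 conditions. Open circles are single F1G4 WT libraries, short bars the authors' WT means, triangles at the lower edge libraries with 0 fragments, filled points single libraries with 95% Poisson counting intervals, and the dotted line an FPKM of 1; for Irx3 on WT day 1 the mean alone is drawn. Irx3 and Irx5 peak in Eomes KO on day 3 (18.3 and 5.30 FPKM), and Irx4 is high in Eomes KO and T KO on day 3 (7.40 and 6.71 FPKM).

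In WT cells, Irx3 and Irx5 were highest on day 1. Mean Irx3 was 0.128 FPKM at the ES stage, 1.84 on day 1, 0.898 on day 2 and 0.690 on day 3. The deeper and shallower libraries held 0.197 and 0.0586 FPKM at the ES stage, 1.27 and 0.531 on day 2 and 0.865 and 0.515 on day 3. The ranges of days 2 and 3 overlap, and neither reaches down to the ES stage. The single-library values of day 1 could not be determined, because 2 combinations of fragments give the same mean. Irx5 followed at lower levels, with means of 0.0551, 0.771, 0.244 and 0.115 FPKM. Its day 1 libraries stood far apart, at 1.31 FPKM (81 fragments) and 0.232 FPKM (13 fragments). On day 2 they were at 0.438 and 0.0502 FPKM, on day 3 at 0.0717 and 0.157 FPKM, and at the ES stage at 0.0149 and 0.0954 FPKM. The WT libraries of Irx5 differed by a log2 of 2.50 on day 1 and 3.12 on day 2, and the ranges of these days overlap.

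Irx4 rose along the WT course. Its mean went from 0.0274 FPKM at the ES stage to 0.214 on day 1, 0.571 on day 2 and 1.88 on day 3. The libraries held 0.0549 and 0 FPKM at the ES stage, 0.164 and 0.263 on day 1, 0.725 and 0.417 on day 2 and 2.07 and 1.70 on day 3. No library of a later stage was below a library of an earlier one. Irx2 changed little, with means of 0.389, 0.274, 0.520 and 0.293 FPKM and libraries from 0.157 to 0.553 FPKM. Irx1 had at most 4 fragments in any F1G4 WT library. Irx6 had none at the ES stage and on days 1 and 2, and 15 fragments in 1 day 3 library and 0 in the other.

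A gene was examined in a comparison where its FPKM was above 1 in either column, and called where the ratio was above 2-fold. Between day 1 and the ES stage 1 family member, Irx3, was called higher (log2 3.84), where 7.7% of all genes examined were. No member was called between day 2 and the ES stage (23.3% of genes examined were, in either direction), and Irx4 was called higher on day 3 than at the ES stage (log2 6.10, against 18.5% of genes). Irx3 was called lower on day 2 than on day 1 (log2 -1.03, against 4.13% of genes), and Irx4 higher on day 3 than on day 2 (log2 1.72, against 6.14%). With the shallower day 2 library left out, Irx3 was no longer called lower on day 2. The ES reference is small: against the deeper ES library alone the Irx3 value of day 1 was 3.22 and against the shallower 4.97. For Irx4 the ES libraries held 4 and 0 fragments, so that the day 3 value was 5.10 against the deeper and could not be given against the shallower.

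All 3 F1G4 KO lines had more Irx3 RNA than WT on both days. Irx3 was at 4.43 FPKM (295 fragments) in Eomes KO on day 2, 3.88 (165 fragments) in T KO and 3.94 (237 fragments) in dKO, each above both WT libraries of that day. On day 3 it was at 18.3 FPKM (1048 fragments) in Eomes KO, 10.5 (500 fragments) in dKO and 2.64 (232 fragments) in T KO. On day 2 the counting intervals of the 3 lines overlapped, from 3.94 to 4.97 FPKM in Eomes KO, 3.31 to 4.52 in T KO and 3.45 to 4.47 in dKO. On day 3 they did not, with 17.2 to 19.4 FPKM in Eomes KO, 9.61 to 11.5 in dKO and 2.31 to 3.00 in T KO. The log2 ratio to WT was 2.31 in Eomes KO, 2.06 in T KO and 2.14 in dKO on day 2, and ran over the WT libraries from 1.81 to 3.09, from 1.56 to 2.84 and from 1.64 to 2.92. On day 3 it was 4.67 (25.4-fold) in Eomes KO, 1.92 in T KO and 3.88 (14.7-fold) in dKO. Against single WT libraries the Eomes KO value of day 3 ranged from 4.35 to 5.07 and the T KO value from 1.60 to 2.34. Both ranges use the same WT libraries and do not show the spread between KO libraries, which is unknown.

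Irx5 went with its neighbour. On day 2 it was at 1.84 FPKM (125 fragments) in Eomes KO, 1.52 (66 fragments) in T KO and 1.02 (63 fragments) in dKO. On day 3 it was at 5.30 FPKM (311 fragments) in Eomes KO, 1.07 (96 fragments) in T KO and 2.18 (106 fragments) in dKO. Every one of these values was above both WT libraries of its day, which held at most 29 fragments. The log2 ratios on day 2 were 2.92 in Eomes KO, 2.58 in T KO and 2.08 in dKO, and on day 3 they were 5.47 (44.2-fold), 3.21 and 4.19 (18.3-fold). Because 1 WT library of day 2 had 3 fragments of Irx5, the Eomes KO ratio of that day was 2.07 to the deeper WT library and 5.22 to the shallower. The size of the Irx5 ratios is thus set loosely, while each remained above 1 on the log2 scale against either WT library, the lowest being 1.23 in dKO on day 2.

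Irx4, the ventricular member, had another pattern. On day 3 it was at 7.40 FPKM (470 fragments) in Eomes KO and 6.71 (653 fragments) in T KO, against 2.07 and 1.70 FPKM in the WT libraries. In dKO it was at 1.22 FPKM (64 fragments, counting interval 0.936 to 1.55), below both WT libraries. The dKO interval overlapped that of the shallower WT library (1.41 to 2.04 FPKM) and not that of the deeper (1.75 to 2.42 FPKM). The log2 ratios on day 3 were 1.91 in Eomes KO (1.79 to 2.05 over the WT libraries), 1.82 in T KO (1.69 to 1.96) and -0.69 in dKO (-0.81 to -0.55). The Eomes KO and T KO levels had overlapping counting intervals (6.75 to 8.10 and 6.21 to 7.24 FPKM). The dKO level was lower than that of Eomes KO by a log2 of -2.61 and lower than that of T KO by -2.46. On day 2 Irx4 was at 0.285 FPKM in Eomes KO and 0.465 in dKO, and at 1.30 in T KO (log2 1.13). Without the shallower WT library of day 2 that last ratio was 0.78.

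Irx2 was at 1.59 FPKM (76 fragments) in T KO on day 2, against 0.493 and 0.547 FPKM in the WT libraries (log2 1.56). In dKO on day 3 it was at 1.10 FPKM (59 fragments), against 0.430 and 0.157 FPKM in WT (log2 1.86, from 1.31 to 2.75 over the WT libraries). In Eomes KO on day 3 it was at 0.975 FPKM (63 fragments), which is just under the level that a gene needed to be examined. Irx1 had 17 fragments in Eomes KO and 17 in dKO on day 3 and none in either WT library. The counting interval of Irx1 was 0.197 to 0.541 FPKM in Eomes KO and 0.237 to 0.652 in dKO, and reached up to 0.0616 and 0.0677 FPKM in the WT libraries. T KO had 1 fragment of Irx1 on that day. Irx6 had 12 fragments in Eomes KO on day 2 (counting interval 0.0650 to 0.220 FPKM), 0 in both WT libraries and 0 in dKO of that day.

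By the call rule, 2 members were higher in Eomes KO on day 2 (Irx3 and Irx5), where 3.35% of all genes examined were higher. On day 3 there were 3 (Irx3, Irx4 and Irx5), where 7.39% of genes were. In T KO 4 members were called higher on day 2 (Irx2, Irx3, Irx4 and Irx5, against 5.7% of genes) and 3 on day 3 (Irx3, Irx4 and Irx5, against 2.12%). In dKO 2 were called on day 2 (Irx3 and Irx5, against 3.48%) and 3 on day 3 (Irx2, Irx3 and Irx5, against 5.51%). None was called lower, as were 4.17% of genes examined in Eomes KO, 9.93% in T KO and 4.5% in dKO on day 2, and 9.01%, 3.92% and 5.53% on day 3. The members were chosen for these contrasts, and the comparisons of a day share their WT libraries, so that nothing is read from the counts. Genes of chromosome 8 had a median log2 ratio of 0.175 to 0.231 in these 6 comparisons, against -0.0413 to -0.00854 for all genes, and genes of chromosome 13 one of -0.0265 to 0.106. For chromosome 8 it was 0.234 to 0.383 against the deeper and 0.0827 to 0.213 against the shallower WT library. With the chromosome median subtracted, all 17 calls were kept.

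**Figure D2:**
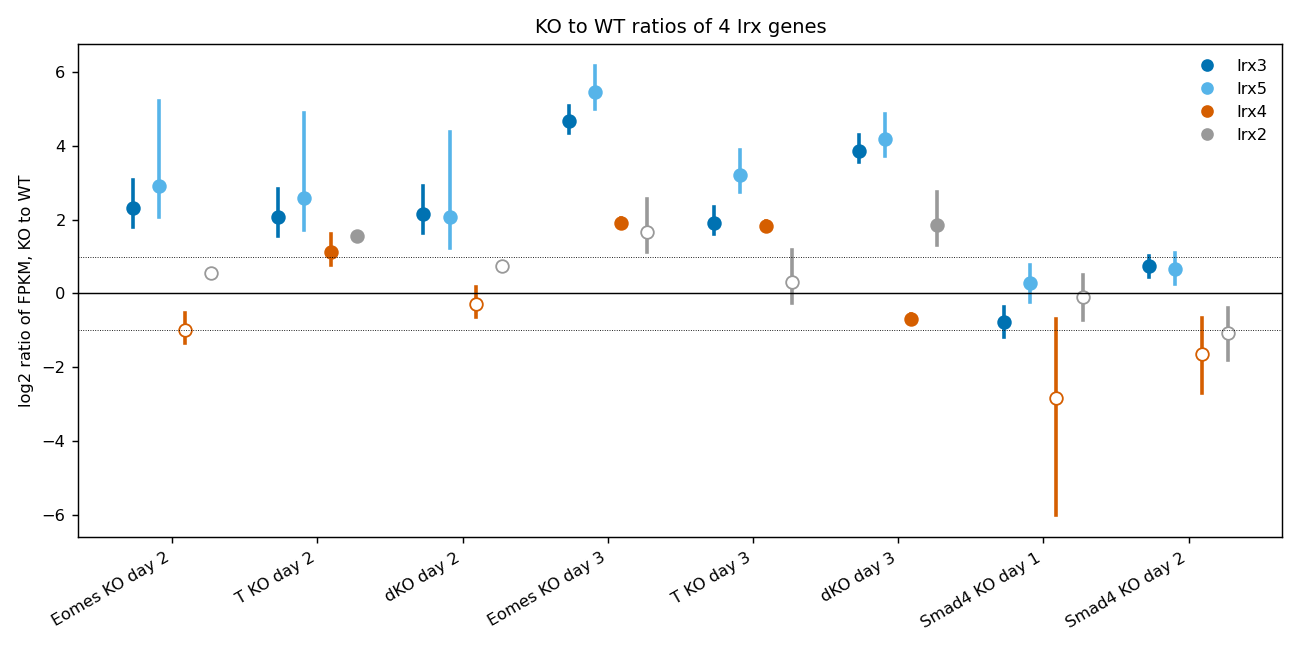
Log2 ratio of KO to WT FPKM for Irx3, Irx5, Irx4 and Irx2 in 8 comparisons. Lines span the ratios to each WT library (F1G4 lines) or the 95% counting interval (Smad4 line), open points are genes not above an FPKM of 1 in either column, and dotted lines mark a 2-fold ratio. Irx3 and Irx5 are above the upper dotted line in the 6 F1G4 comparisons and within both lines in Smad4 KO; Irx4 is above it on day 3 in Eomes KO (1.91) and T KO (1.82) and below 0 in dKO (-0.69).

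Between days 2 and 3 the lines moved in different directions. Irx3 was higher on day 3 than on day 2 by a log2 of 2.04 in Eomes KO and 1.42 in dKO, and lower in T KO (-0.56). Irx5 was higher by 1.53 in Eomes KO and 1.09 in dKO and lower in T KO (-0.51). Its T KO counting intervals of days 2 and 3 overlapped (1.17 to 1.93 and 0.865 to 1.30 FPKM). Irx2 was higher by 0.36 in both Eomes KO and dKO, where the counting intervals of the days overlapped, and lower in T KO (-2.13). Irx4 was higher on day 3 in each line, by 4.70 (26.0-fold) in Eomes KO, 2.37 in T KO and 1.39 in dKO. Each of these values compares 1 library with 1 library, and the T KO library of day 2 and the Eomes KO library of day 3 are the pair with the shared low genes described above.

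In the Smad4 line no family member passed the call rule on either day, where 2.36% of all genes examined were higher and 2.41% lower on day 1, and 2.56% and 3.21% on day 2. Irx3 was at 2.43 FPKM (135 fragments) in the WT library of day 1 and 1.43 (80 fragments) in Smad4 KO, a log2 ratio of -0.77 with a counting interval of -1.19 to -0.36. On day 2 it was at 1.98 FPKM (164 fragments) in WT and 3.30 (268 fragments) in Smad4 KO, a log2 ratio of 0.74 (0.45 to 1.03). The direction turned between the days, and without replicates the spread between libraries behind it is unknown. The Smad4 KO level of day 2 (counting interval 2.92 to 3.72 FPKM) overlapped that of T KO on the same day. Irx5 was at 1.11 and 1.34 FPKM on day 1 and 0.957 and 1.52 on day 2 (log2 0.27 and 0.67). Irx4 was at 0.228 FPKM in WT and 0.0322 in Smad4 KO on day 1 (14 and 2 fragments), and at 0.415 and 0.134 on day 2 (38 and 12 fragments). Irx2 was at 0.800 and 0.744 FPKM on day 1 and at 0.622 and 0.295 on day 2 (58 and 27 fragments).

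The WT cells of both lines were then compared. On day 2 those of the Smad4 line held 1.98 FPKM of Irx3 against a mean of 0.898 in F1G4 WT (log2 1.14), a ratio that passed the call rule. It was 0.65 against the deeper F1G4 WT library, which would not pass, and larger against the shallower. Between the WT lines 5.15% of all genes examined passed it in either direction on that day. Irx5 was at 0.957 and 0.244 FPKM (log2 1.97), not above 1 in either line. On day 1 the Irx3 log2 ratio between the lines was 0.41. That of Irx5 was 0.53 to the mean, and -0.24 to the deeper and 2.26 to the shallower F1G4 WT library. Genes of chromosome 8 as a whole had a median log2 ratio of -0.46 (day 1) and -0.43 (day 2) between the WT lines. The lines also differ in genetic background, which cannot be told apart from other differences between them.

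Within the chromosome 8 cluster the Irx3 value, a mean in F1G4 WT, was above that of Irx5 in each of the 14 conditions. It was 1.06 times the FPKM of Irx5 in Smad4 KO on day 1, where the counting intervals overlapped (80 and 77 fragments), and 6.03 times in F1G4 WT on day 3, from 3.27 in the shallower library to 12.1 in the deeper. In the shallower ES library Irx3 was below Irx5, at 3 fragments of Irx3. Crnde, whose start faces that of Irx5, was on day 2 at 1.97 FPKM in Eomes KO, 2.83 in T KO and 1.77 in dKO, against 0.975 and 0.312 FPKM in the WT libraries. On day 3 Crnde was at 3.03 FPKM in Eomes KO and 2.09 in dKO, against 0.221 and 0.320 FPKM in WT. In T KO on day 3 it was at 0.741 FPKM. The Crnde log2 ratios were 1.62 in Eomes KO, 2.08 in T KO and 1.47 in dKO on day 2, and 3.42 in Eomes KO and 2.89 in dKO on day 3. Against the deeper WT library of day 2 they were 1.02 in Eomes KO, 1.48 in T KO and 0.87 in dKO, where the last was below 2-fold. In the Smad4 line Crnde was at 0.0796 to 0.337 FPKM while Irx5 was at 0.957 to 1.52 FPKM. The library kit keeps strand, but whether the counting used it is not given in the sources used here, and the annotated genes do not overlap.

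**Figure D3:**
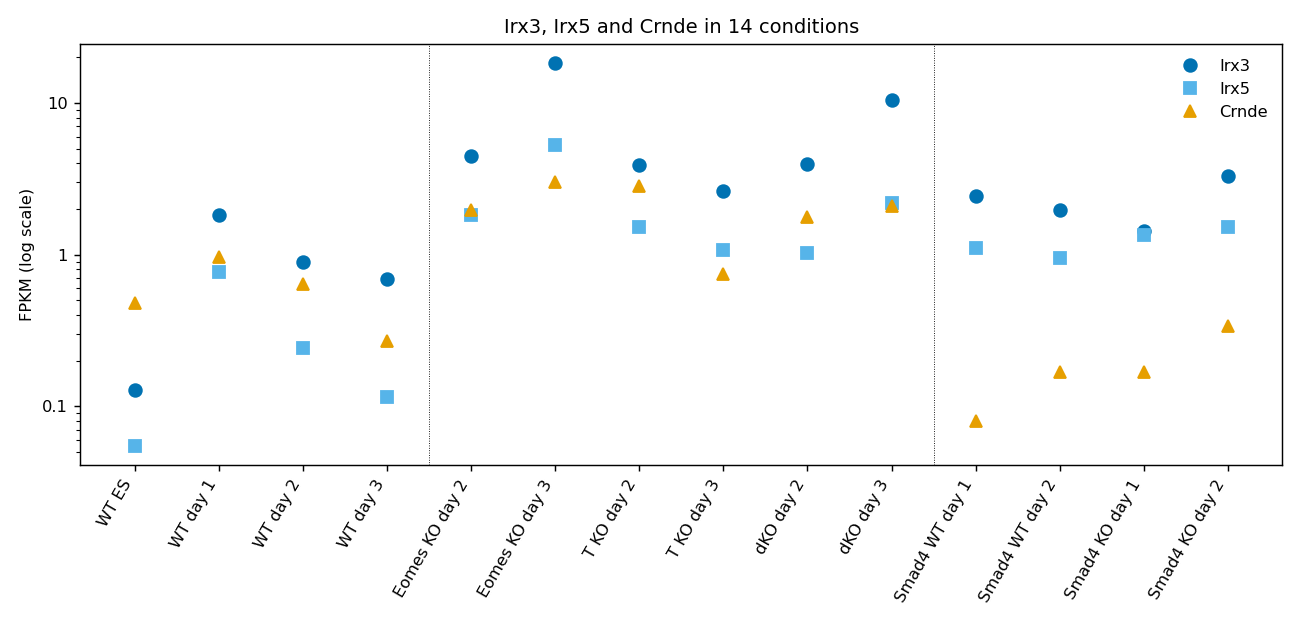
FPKM (log axis) of Irx3, Irx5 and Crnde in 14 conditions, 1 point a condition (authors' mean of 2 libraries in F1G4 WT, single libraries otherwise), with dotted vertical lines between F1G4 WT, F1G4 KO lines and the Smad4 line. Irx3 lies above Irx5 in every condition by these values, and Crnde is above both at the ES stage (0.476 FPKM) and below both in the Smad4 line (0.0796 to 0.337 FPKM).

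Other genes within 1 Mb of the clusters were compared next. Near the chromosome 8 genes 18 neighbours were measured, of which 8 could be examined in Eomes KO on day 3. Of these, Crnde (log2 3.42) and Chd9, a chromatin remodeller gene (4.50 FPKM in WT and 11.9 in Eomes KO, log2 1.40), were called higher. Of all genes examined 7.39% were higher in that library, and of those on chromosome 8, 11.99%. On day 2 Crnde was the single neighbour called against mean WT, of 8 examined in Eomes KO, 8 in T KO and 7 in dKO. Of all genes examined 3.35%, 5.7% and 3.48% were higher, and of those on chromosome 8, 3.70%, 8.02% and 3.90%. Crnde was also the single one called of 8 in dKO on day 3 (5.51% of all and 7.51% of chromosome 8 genes). In T KO on day 3 none of 7 was called (2.12% and 3.56%). Fto, the demethylase gene whose introns hold long-range enhancers of Irx3 and Irx5, was between 11.4 and 19.5 FPKM in the F1G4 KO libraries, with log2 ratios to mean WT from -0.20 to 0.28. The WT libraries of day 3 held 11.4 and 19.8 FPKM of Fto, and against single WT libraries the ratios ran from -0.53 to 0.74. Near the chromosome 13 genes 24 neighbours were measured. In Eomes KO on day 3, Nkd2 (log2 1.16) and Tert (log2 1.06) were called higher and Ndufs6, a complex I subunit gene next to Irx4, lower (87.1 FPKM in WT and 18.4 in Eomes KO), 3 calls among 12 neighbours examined. Of all chromosome 13 genes examined, 5.90% were higher and 7.18% lower in that library. Against the shallower WT library alone Chd9 (log2 0.94) and Tert (0.36) were not past 2-fold. In dKO on day 3, Nkd2 (log2 1.14) and Eprn (log2 1.03, and 0.73 to the deeper WT library) were called higher, 2 of 12 examined. Of all genes examined there 5.51% were higher, and of those on chromosome 13, 3.08%. In Smad4 KO on day 2 Eprn, 1 of 12, was called lower (log2 -1.05), against 3.21% of all genes and 2.94% of those on chromosome 13. Ndufs6, 1 of 13 examined, was also called lower in T KO on day 2 (19.9 FPKM against 76.1). Of all genes examined there 9.93% were lower, and of those on chromosome 13, 6.17%. Ndufs6 was thus low in the pair of libraries with the shared low genes, and it was at 79.3 FPKM in T KO on day 3.

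**Figure D4:**
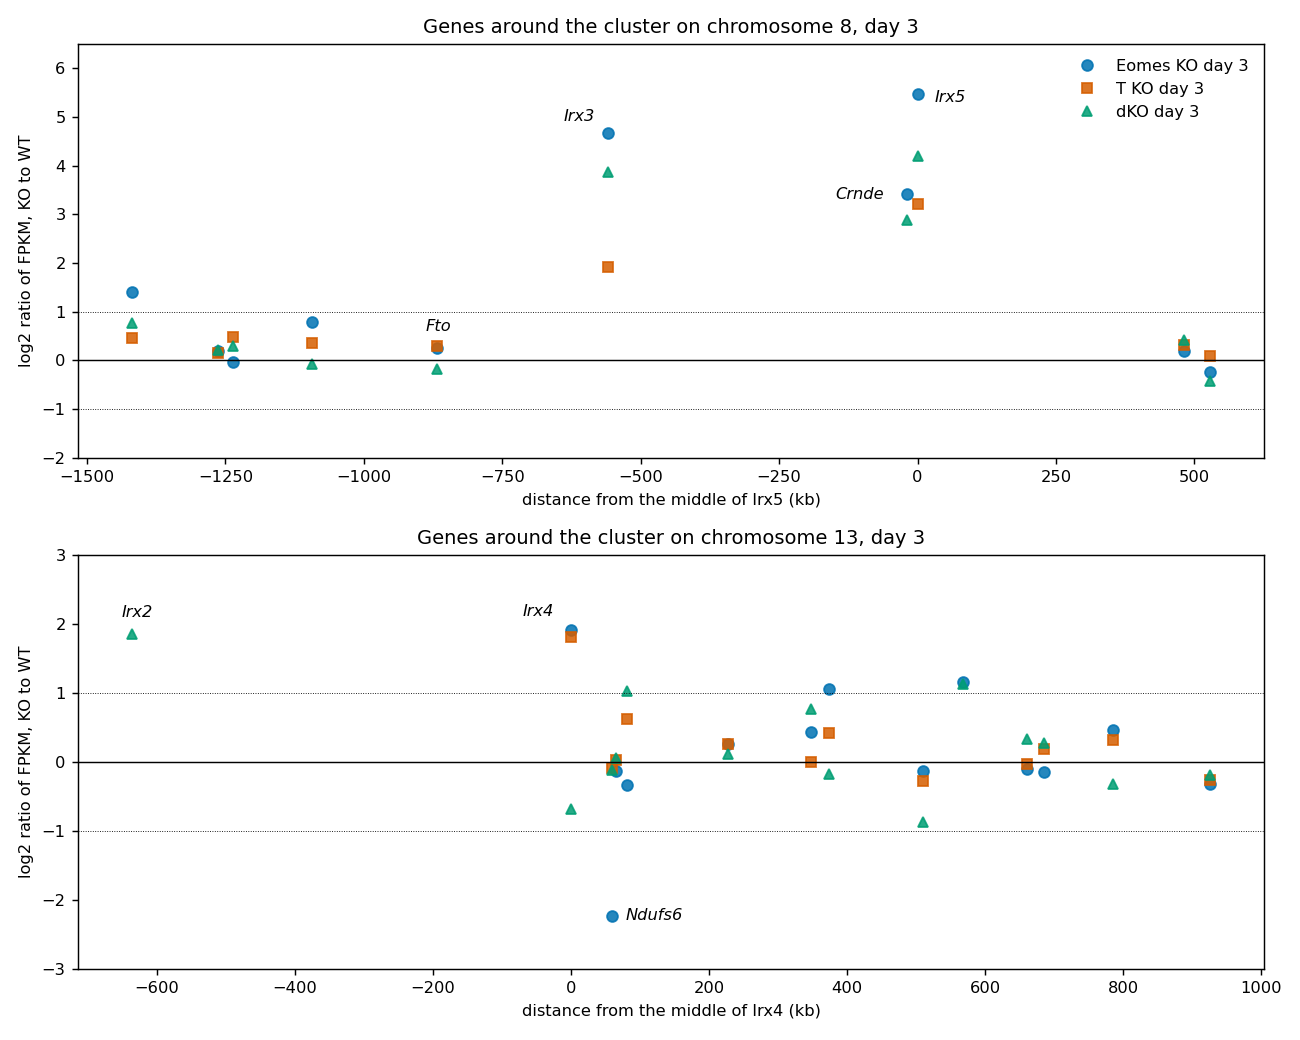
Log2 ratio of KO to WT on day 3 (Eomes KO, T KO and dKO) against distance in kb from the middle of Irx5 (chromosome 8) or Irx4 (chromosome 13), for genes above an FPKM of 1 in either column. On chromosome 8 the high points are Irx3, Irx5 and Crnde, and Chd9 in Eomes KO (1.40), with Fto between -0.19 and 0.28; on chromosome 13 Irx4 is at 1.91 in Eomes KO and 1.82 in T KO.

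The genes whose log2 levels followed each member most closely were ranked over the 14 conditions among 3309 genes that reached an FPKM of 2 and varied by a log2 of at least 2. For Irx3 the first was Irx5 (Pearson's r = 0.936), followed by Gdf11, a TGF-beta family ligand gene (0.929), Snord55 (0.906), Lrrn4 (0.890) and Taf9b (0.870). Gdf11 was at 0.893 FPKM on WT day 2 and 0.755 on WT day 3, and at 2.39 in Eomes KO and 2.54 in dKO on day 3. For Irx5 the first was Irx3, followed by Plxdc2 (0.893), Slc4a3 (0.848), Cacfd1 (0.838) and Lrrn4 (0.833). For Irx4 they were Igf2os and Mapk8ip3 (0.957 each), the insulin receptor gene Insr (0.953), Galns (0.952) and the PDGF receptor gene Pdgfrb (0.937). For Irx2 they were Pisd-ps1 (0.874), Snhg20 (0.858), Snora78 (0.831), Olfm2 (0.797) and Dok5 (0.793). Irx3 and Irx4 had an r of 0.520 and Irx4 and Irx5 one of 0.331. The ranks moved with the measure. With a pseudocount of 1, Igf2os was number 14 and Mapk8ip3 number 28 for Irx4, and by Spearman's rho Galns was 32 and Pdgfrb 42. For Irx3, Irx5 was number 5 and Lrrn4 number 27 by Spearman's rho. The points share clones, stages and in part libraries, and small RNA genes such as Snord55 and Snora78 are poorly measured in such libraries.

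Among 12 other TALE homeobox genes, which include the Meis and Pbx cofactors, 10 to 12 were examined in each F1G4 KO comparison. Meis2 was called higher in 5 of the 6, with 16.6 FPKM in Eomes KO and 16.6 in dKO on day 2 against 3.16 in WT, and was at 8.50 FPKM in T KO on day 3. Pknox2 was called higher in T KO on day 2 (log2 1.29) and Eomes KO on day 3 (1.28), and Mkx lower in Eomes KO (-1.06) and T KO (-1.52) on day 3, as was Meis3 in T KO (-1.36). Meis1 was called higher in dKO on both days (log2 2.69 and 2.23) and in Eomes KO on day 3 (1.77). Against the deeper WT library alone Pknox2 (log2 0.99) and Mkx (-0.77) in Eomes KO on day 3 were not past 2-fold. In Smad4 KO 2 of 11 were called higher on day 1, Pbx4 (log2 2.05) and Meis1 (1.06), and Meis2 lower (-1.10), against 2.36% and 2.41% of all genes. On day 2 none was higher, and Meis2 (-1.47) and Mkx (1.13 FPKM against 4.21) were lower (2.56% and 3.21% of genes). In Eomes KO 1 of 10 was higher and none lower on day 2 (3.35% and 4.17% of all genes examined), and 3 of 12 higher and 1 lower on day 3 (7.39% and 9.01%). In T KO 2 of 11 were higher on day 2 (5.7% of genes), and none of 10 was higher and 2 lower on day 3 (2.12% and 3.92%). In dKO 2 of 11 were higher on day 2 (3.48%) and 2 of 12 on day 3 (5.51%). List medians on the log2(FPKM + 0.1) scale were between -0.24 and 0.45, against -0.041 to -0.008 over all genes examined.

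Of 17 genes that act with Irx factors in neural tube patterning, 3 to 5 were examined in each of these comparisons. In Eomes KO on day 2, 3 of 5 were called higher, against 3.35% of all genes examined: Pax6, the eye and forebrain regulator (4.54 FPKM against 0.100), Gbx2, which sets the anterior hindbrain (4.02 against 0.439), and En2, a midbrain-hindbrain gene (2.24 against 0.208). In dKO on day 2 the called genes, 3 of 5, were Pax6, En2 and Gbx2 as well (3.48% of genes), while in T KO on day 2 1 of 3, Gbx2 (log2 3.31), was called (5.7% of genes). On day 3, of 4 examined in Eomes KO Lmx1b was higher and Gbx2 lower (7.39% and 9.01% of genes). The Gbx2 ratio was -2.31 to the deeper WT library and 1.86 to the shallower, so that its direction depended on the library. Of 4 in dKO Pax6 was higher (4.03 FPKM against 0.0488, 5.51% of genes), and none of 3 was called in T KO. In Smad4 KO on day 1, of 4 examined, Pax6 (log2 2.47) and Gbx2 (1.76) were higher and Nkx6-2 lower (-1.23), against 2.36% and 2.41% of genes. In Smad4 KO on day 2, 3 of 4 were called higher, against 2.56% of genes. Among them were Pax6 (10.4 FPKM against 0.378) and Otx2, the anterior neuroectoderm regulator (54.2 against 15.3).

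Markers of neural cells were read beside the Irx levels. The 4 genes Sox1, Pax6, Nes and Hes5 summed to 26.8 FPKM on WT day 2 and 26.1 on WT day 3, and to 12.5 on WT day 1 and 7.13 at the ES stage. In single WT libraries the sum was 21.8 and 31.7 FPKM on day 2 and 36.5 and 15.8 on day 3 (deeper and shallower). On days 2 and 3 the sum was 37.3 and 24.9 FPKM in Eomes KO, 21.8 and 38.4 in T KO, and 31.1 and 35.4 in dKO. In the Smad4 line it was 15.0 and 30.8 FPKM in WT and 30.4 and 72.4 in Smad4 KO on days 1 and 2. Nes was the most abundant marker in each condition, and it is also made by other progenitors. Hes5 was listed at 0 at the ES stage and on day 1 of the Smad4 line WT, and the mean was at most 0.392 FPKM elsewhere. Sox1, which marks neural progenitors, was on day 2 at 7.17 FPKM in Eomes KO, 4.01 in T KO and 5.17 in dKO. On day 3 it was at 5.75, 0.914 and 6.49 FPKM, against at most 0.398 in a WT library of these days. In Eomes KO on day 3 Nes was at 18.4 FPKM and Hes5 at 0.0644, each between the WT libraries of that day (35.3 and 15.7 FPKM for Nes, 0.785 and 0 for Hes5). Sox1 in Smad4 KO was at 1.62 FPKM on day 1 and 3.58 on day 2. Of a wider list of 16 neural progenitor genes 9 or 10 were examined in each KO comparison. In Eomes KO 3 were called higher and none lower on day 2 (Sox1, Sox2 and Foxd3, against 3.35% and 4.17% of all genes), and on day 3 2 were higher (Sox1 and Zic2, against 7.39%) and 2 lower (Cdh2 and Sox3, against 9.01%). In T KO 5 were higher on day 2 (against 5.7%), led by Sox1 (log2 4.26) and Foxd3 (2.55). In T KO on day 3 Foxd3 was higher (1.64, against 2.12%) and Cdh2, the N-cadherin gene, lower (-4.95, against 3.92%). In dKO Sox1 was higher on both days (log2 4.69 and 5.03, against 3.48% and 5.51% of all genes). Pou3f1 was lower in dKO on day 2 (-1.20, against 4.5%) and Cdh2 on day 3 (-3.29, against 5.53%). In Smad4 KO 6 were higher on day 1 and 7 on day 2 (against 2.36% and 2.56%) and none lower. With 1 WT library in place of the mean, Foxd3 on day 2 and Zic2 and Sox3 on day 3 in Eomes KO, Zic5 in T KO and Pou3f1 in dKO on day 2 were each not past 2-fold against 1 of the libraries. The part of neural cells in the Irx levels was not tested.

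Feeder fibroblasts, which were removed before differentiation, were followed with 8 markers. Their sum was 0.600 to 5.42 FPKM over the 14 conditions, 5.05 in Eomes KO on day 3 and 3.59 in dKO on day 3, and Col1a1 was at most 0.946 FPKM. Definitive endoderm markers summed to at most 4.83 FPKM. The 7 surface ectoderm markers were dominated by Krt8, Krt18 and Epcam, of which Krt8 and Krt18 also rose along the WT course, and summed to 1721 FPKM on WT day 3, 1743 in Eomes KO, 1987 in T KO and 2312 in dKO. Of the less abundant markers, Tfap2a was at 1.50 FPKM in Eomes KO on day 3 and at most 0.537 in any other condition. Tfap2c was highest at the ES stage (17.0 FPKM), at 7.42 FPKM in Eomes KO and 13.2 in T KO on day 3, Gata3 highest in dKO on day 3 (1.12 FPKM) and Dlx5 in dKO on day 2 (0.471 FPKM). The trophoblast marker Cdx2 was on day 2 at 3.65 FPKM in Eomes KO, 3.76 in T KO and 3.66 in dKO, against 0.617 in mean WT. On day 3 Cdx2 was at 0.439, 0.498 and 1.96 FPKM, against 7.30, and Elf5 was at most 0.0125 FPKM anywhere. Of the other trophoblast markers, Hand1 went the other way on day 3, at 62.9, 29.5 and 32.2 FPKM against 20.5 in mean WT. Gcm1 was at 0.483, 0.920 and 0.389 FPKM, against 0.532. Pecam1, listed here as an endothelial marker, was highest at the ES stage (16.6 FPKM) and at 12.5 FPKM on WT day 1. It is thus not specific to endothelium in these cells. On day 3 Pecam1 was at 8.37, 2.67 and 6.63 FPKM, against 3.24 in mean WT. Kdr was on day 3 at 0, 0.0147 and 0.0634 FPKM, against 0.415. The part of any of these cells in the Irx levels was not tested.

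Of 14 genes linked to Irx function, 5 to 8 were examined in each KO comparison. In Eomes KO 1 of 8 was higher on day 2 (3.35% of all genes examined), and 2 of 7 were higher and 1 lower on day 3 (7.39% and 9.01%). In T KO 1 of 7 was higher and 2 lower on day 2 (5.7% and 9.93%) and 1 of 7 higher on day 3 (2.12%). In dKO 1 of 8 was higher and 1 lower on day 2 (3.48% and 4.5%), and 2 of 8 were higher and 1 lower on day 3 (5.51% and 5.53%). In Smad4 KO 1 of 5 was higher on each day (2.36% and 2.56%). Besides Crnde, Cxcl12, a chemokine gene linked to Irx5 in craniofacial development, was called higher on day 3 in Eomes KO (1.41 FPKM in WT and 12.7 in KO, log2 3.17), T KO (log2 1.78) and dKO (log2 1.71, and 0.99 to the deeper WT library). Cxcl12 was also called higher in Smad4 KO, at 13.8 FPKM against 4.96 on day 1 and 26.3 against 3.72 on day 2. Irx3 and Irx5 were under the 2-fold limit there, with log2 ratios of -0.77 and 0.27 on day 1 and 0.74 and 0.67 on day 2. In F1G4 WT Cxcl12 was highest on day 1 (10.3 FPKM), as were Irx3 and Irx5. Gja1, the connexin 43 gene, was called lower in Eomes KO on day 3 (33.8 FPKM against 139.6, log2 -2.05) and in T KO on day 2 (26.0 against 183, log2 -2.82), the pair of libraries with shared low genes. In dKO on day 3 Gja1 was at 129.6 FPKM. A link between Gja1 and the Irx levels was not tested. Ptch1, the Hedgehog receptor gene, was called lower in T KO (log2 -1.57) and dKO (-1.12) on day 2 and in dKO on day 3 (-1.62, and -0.73 to the deeper WT library). Kcnd2, a potassium channel gene repressed by Irx5 in the ventricle, was at most 0.0699 FPKM in any condition.

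Of 16 cardiac progenitor and ventricular genes, 3 to 6 were examined in each F1G4 KO comparison. In Eomes KO 2 of 3 were higher and 1 lower on day 2 (3.35% and 4.17% of all genes examined), and 2 of 6 higher and 3 lower on day 3 (7.39% and 9.01%). In T KO 2 of 4 were higher on day 2 (5.7%), and 1 of 6 was higher and 3 lower on day 3 (2.12% and 3.92%). In dKO 2 of 3 were higher and 1 lower on day 2 (3.48% and 4.5%), and 1 of 6 was higher and 2 lower on day 3 (5.51% and 5.53%). In Smad4 KO 1 of 4 was lower on day 1 (2.41%), and 1 of 3 higher and 1 lower on day 2 (2.56% and 3.21%), the lower one being Hand1 on both days. Myl3, a ventricular myosin light chain gene, was called higher in all 6, from 3.08 FPKM in T KO on day 2 to 6.99 FPKM in dKO on day 3, against 0.468 to 0.521 FPKM in WT. It was also called higher in Smad4 KO on day 2 (3.03 FPKM against 0.285). Actc1, the cardiac actin gene, was called higher on day 2 in Eomes KO (log2 1.44), T KO (1.50) and dKO (1.72). Against the deeper WT library the Actc1 ratio was 0.81 in Eomes KO and 0.86 in T KO. Mesp1, an early regulator of cardiac mesoderm, was listed at 0 in the 3 KO lines on day 3. Isl1, a second heart field gene, was called lower on day 3 in Eomes KO (0.470 FPKM against 1.37), T KO (0.180 against 1.32) and dKO (0.117 against 1.36), and Tnnt2, which encodes cardiac troponin T, lower in Eomes KO (0.310 FPKM against 1.05) and T KO (0.169 against 1.02), while in dKO it was at 1.20 FPKM. Both genes were near an FPKM of 1 in WT. Because 1 WT library, the deeper for Isl1 and the shallower for Tnnt2, held less than that, these calls were lost against it. In Eomes KO the ratio of Tnnt2 to that library was still past 2-fold (log2 -1.09), and that of Isl1 was not (-0.90). The Isl1 levels of T KO and dKO were also below that library (0.878 FPKM in the Eomes KO comparison). Hand1 was called lower on day 2 in Eomes KO (1.71 FPKM against 8.59, log2 -2.33) and dKO (2.78 against 8.57, log2 -1.63). It was at 62.9 FPKM in Eomes KO on day 3 against 21.4 in WT (log2 1.56), and at 29.5 FPKM in T KO and 32.2 in dKO. Irx4 and Myl3 were both above WT in Eomes KO and T KO on day 3. In dKO on day 3 Myl3 was at its highest, and Irx4 was below WT by less than 2-fold (log2 -0.69). A link between them was not tested.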

How the data were processed

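RNA-seq FPKM values were used as the authors deposited them. Per the study's methods, reads were checked with FastQC, trimmed with cutadapt 2.9, aligned with HISAT2 2.1.0 to mm10 with RefSeq splice sites and no mixed or discordant pairs, sorted with samtools 1.9 and quantified with Cuffdiff 2.2.1 (multi-read and bias correction, no effective length correction). The libraries were strand-specific ScriptSeq v2. The 9 tables give 1 column a condition, 20 in all, for 14 conditions of 18 samples. No column was left unused.

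FPKM times transcript length gave whole fragments (within 0.05) for 86.5 to 87.2% of single-transcript genes in the 10 single-library columns. In F1G4 WT columns the authors' mean was split into 2 libraries, within a tolerance of 0.1. This recovery was tested on simulated data. KO columns have 1 step and the labels 1 library, so n = 1 was used, although legends in the study describe averages of replicates.

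The family and the gene lists were chosen with earlier results of these data known. The call rule was that of the study's methods (FPKM above 1 in either column, 2-fold ratio, no pseudocount). List medians used log2(FPKM + 0.1). Genes were named by rule: the family, the 5 most alike to each of its 4 more abundant members, called neighbours within 1 Mb, and, from each list, called genes with the largest ratios (at most 4 a comparison, not all of which are printed). Other named genes, such as WT library values of Nanog and Fgf5, were chosen after their values were seen. No test was run, since a KO condition has 1 library and the members were chosen on these contrasts.

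Alternatives were pseudocounts of 0.1 and 1, no FPKM minimum or one of 5, TPM scaling, centring on the median of all genes or of the chromosome, the time-course WT column and, added after seeing the data, each WT library alone (for the family, and for called list genes and neighbours). The work was done in Python 3.11.15 (scipy 1.17.1, pandas 2.3.3, numpy 2.4.6; figures with matplotlib 3.10.9). Promoter sequences are from RefSeq.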

Additional observations from a re-analysis of the deposited data

Results flagged for a closer look

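Ratios that took opposite signs under the same contrast drew attention, and none of these differences was tested, since each rests on single libraries. The Irx4 log2 ratio of Eomes KO to WT was -0.99 on day 2 and 1.91 on day 3, a difference of 2.90. The day 2 levels were under the FPKM minimum of 1 (0.285 in Eomes KO, 21 fragments, and 0.567 in WT). That ratio ran from -1.34 to -0.53 over the WT libraries. The Eomes KO library of day 3 belongs to the pair with shared low genes. Irx3 was lower in Smad4 KO than in WT on day 1 (log2 -0.77) and higher on day 2 (0.74), a difference of 1.51.

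From day 2 to day 3, Irx2, Irx3 and Irx5 were lower in T KO and higher in Eomes KO and dKO. For Irx5 in T KO and Irx2 in Eomes KO and dKO the counting intervals of the days overlapped. Relative to T KO, the log2 change of Irx2 was greater by 2.48 in Eomes KO and 2.49 in dKO. That of Irx3 was greater by 2.60 in Eomes KO and 1.97 in dKO, and that of Irx5 by 2.04 and 1.60. The 3 genes share the T KO library of day 2, which had the lowest depth (18100000 fragments).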

How the results depend on the processing

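No called Irx ratio reversed under any alternative, whereas among uncalled ones Irx4 in dKO on day 2 (-0.63 to the deeper and 0.18 to the shallower WT library) and Irx2 in T KO on day 3 (-0.25 and 1.19) took both signs, as did Irx6 at few fragments. Of 21 called Irx ratios, 21 were kept after centring on the median of all genes or of the chromosome, 20 under TPM or a pseudocount of 0.1 and 14 under a pseudocount of 1. With an FPKM minimum of 5, the members called fell to 0 on day 2 in each F1G4 KO line (Eomes KO 0, T KO 0, dKO 0) and to 0 in each WT stage comparison with a call, and to 1 in T KO and dKO on day 3. A pseudocount of 1 left 2 in T KO on day 2, 2 in T KO and 2 in dKO on day 3 (Irx5 and Irx2 lost), 1 in dKO on day 2 and 0 between days 1 and 2 and between days 2 and 3 of WT; the call between days 1 and 2 (0 left) was also lost with a pseudocount of 0.1 and under TPM. Without a minimum, 3 members were past 2-fold in Smad4 KO on day 1 and 3 on day 2, and in WT 4 between day 1 and the ES stage, 4 between day 2 and ES, 3 between day 3 and ES, 3 between days 1 and 2 and 2 between days 2 and 3. With 1 WT library left out at a time, 0 to 1 members were called between day 2 and ES and 0 to 1 between days 1 and 2, and the T KO call of Irx4 on day 2 was lost. Of 81 called list genes and neighbours in the F1G4 KO comparisons 60 kept the call, by FPKM minimum and direction, against both WT libraries. Tnnt2 in Eomes KO on day 3 was among those lost, by the minimum alone (log2 -1.09 to the shallower library). Gbx2 in Eomes KO on day 3 took both signs (-2.31 and 1.86). Leaving out a day 1 library was not run, since Irx3 could not be split there. The cause of these shifts was not tested. No paired analysis was possible because each condition has 1 column and the recovered WT libraries carry no replicate number. Depth limits Irx1 and Irx6, which had at most 17 fragments in a library. Under TPM both were highest in Eomes KO on day 3. Irx1 was there at 0.842 TPM, against 0.777 in dKO on day 3, and Irx6 at 0.304, against 0.236 in Eomes KO on day 2.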
